A study of Mus musculus with 8 samples.

Results

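The 10 genes described here encode the subunits of respiratory complexes I and IV that are made from the mitochondrial chromosome: mt-Nd1, mt-Nd2, mt-Nd3, mt-Nd4, mt-Nd4l, mt-Nd5 and mt-Nd6 of complex I, and mt-Co1, mt-Co2 and mt-Co3 of complex IV. They were chosen by name, and all 10 were found among the 15538 genes of the table. Expression was measured by bulk RNA sequencing of polyadenylated RNA from neurospheres, floating clusters of cultured neural stem cells taken from mouse embryos. By the labels, 4 libraries were from Phf23-/- cells, homozygous for loss of the PHD-finger chromatin gene Phf23, and 4 from WT cells. The sources used here do not give the strain, the embryonic age, the construction of the allele, any agent in the culture or whether the replicates were separate cultures or animals. The p-values therefore measure only how these libraries vary, which may be technical.

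Complex I takes electrons from NADH, and complex IV passes electrons to oxygen; both pump protons across the inner mitochondrial membrane. Each complex joins a few subunits encoded in the mitochondrial chromosome with many encoded in the nucleus. The mitochondrial chromosome is transcribed from both strands into long precursors that are cut, mostly at tRNAs, into single messages. All members but mt-Nd6 are read from the same strand; mt-Nd6 lies on the opposite one. In neural stem cells, a change in the use of oxidative phosphorylation is known to go along with differentiation into neurons.

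Depth was 18099114 to 19462516 recovered reads in the Phf23-/- libraries and 15647304 to 18241215 in the WT libraries. The targeted gene, Phf23, went against its label: the libraries labelled Phf23-/- had 1361 to 1607 normalised reads of it and the WT libraries 720 to 919. All directions given are therefore those of the labels, and a read total per gene cannot show whether a part of it was deleted. All 8 neural stem cell markers examined, Nes, Sox2 and Vim among them, were present. Their summed level was 152810 to 195078 normalised reads in the Phf23-/- libraries and 132597 to 142350 in the WT libraries. Of other cell types, 5 of 6 neuron markers summed to 427 to 478 and 383 to 596 normalised reads, 5 of 5 oligodendrocyte markers to 689 to 798 and 436 to 691, 3 of 5 endothelial markers to 56.8 to 70.4 and 34.9 to 67.2, 1 of 6 microglial markers to 14.4 to 17.9 and 15.7 to 48.4, and 1 of 5 erythroid markers to 0 to 2.79 and 0 to 4.80, each given for Phf23-/- and then WT libraries. Of the defining markers, Mog was at 0 in 1 Phf23-/- library and 1 WT library, and Mag, Stmn2 and Alas2 were also at 0 in some libraries. The sums hide single markers: the oligodendrocyte gene Mbp was at 183 to 215 and 20.2 to 66.4, and the neuron gene Rbfox3 at 42.1 to 49.9 and 5.63 to 25.2. In the genotype test described below, 3 of 5 oligodendrocyte and 1 of 5 neuron markers rose and 0 fell, where 14.8% of all genes rose. None was called with the length slope, defined with the ratios, as a covariate. The part of other cell types in the results was not tested, and in bulk libraries fewer cells of a type and less RNA per cell cannot be told apart.

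Some of these genes have an almost letter-perfect second copy in the nucleus, which bears on how their reads can be counted. GENCODE M21, on the mm10 assembly, annotates 7 pseudogenes side by side on the minus strand of chr1:24611535-24616197 that match the mitochondrial chromosome from the end of mt-Co1 to the middle of mt-Nd4. Of the members, 4 were matched over all but their last 1 to 3 bases: mt-Co2 by Gm28661 (681 of 681 aligned bases identical), mt-Co3 by Gm28437 (783 of 783), mt-Nd4l by Gm10222 (294 of 294) and mt-Nd3 by Gm28438 (344 of 345). A further 2 were matched in part, mt-Nd4 over its first 876 of 1378 bases by Gm28439 with no difference, and mt-Co1 over its last 492 of 1545 bases by Gm29216 with 486 identical. The remaining 4, mt-Nd1, mt-Nd2, mt-Nd5 and mt-Nd6, had no match among the 7. Cut into windows of 50 bases, mt-Nd1 and mt-Nd6 shared 0% of windows with any annotated transcript from outside the mitochondrial chromosome, mt-Nd5 7.61%, mt-Nd2 8.19%, mt-Co1 51.1%, mt-Nd4 62.2% and the 4 fully matched genes 98.0% to 100%. None of the 7 pseudogenes was among the 15538 genes of the table, so it is not known whether any reads were counted to them. Copies outside annotated transcripts were not searched.

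The start of mt-Nd3 (chrM:9459-9518, plus strand) and of its copy Gm28438 (chr1:24613060-24613119, minus strand) is shown because it holds the only base by which their aligned parts differ, T3C, counted from 1 at the first base of mt-Nd3 and set in capitals. The whole of mt-Nd4l (chrM:9877-10173, plus strand) is shown because every base but the stop codon, in capitals, is also in Gm10222. Those last bases follow directly on chromosome 1, within Gm28439 (chr1:24611535-24612410, minus strand), the copy of the start of mt-Nd4. The capitals therefore mark where the annotation of Gm10222 ends. Sequences are those of GENCODE M21, given 5′ to 3′.
mt-Nd3: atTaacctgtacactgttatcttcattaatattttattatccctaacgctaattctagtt
Gm28438: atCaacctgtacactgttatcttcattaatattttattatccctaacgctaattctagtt
mt-Nd4l: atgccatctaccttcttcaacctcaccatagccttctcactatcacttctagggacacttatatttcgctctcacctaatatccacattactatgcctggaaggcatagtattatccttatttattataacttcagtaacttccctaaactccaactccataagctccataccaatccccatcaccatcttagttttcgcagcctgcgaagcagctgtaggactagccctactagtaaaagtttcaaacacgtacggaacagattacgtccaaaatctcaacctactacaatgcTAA

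The edge of the copied stretch is seen in mt-Co1. From base 1054 of mt-Co1 (chrM:6381-6440, plus strand), set beside the first bases of Gm29216 (chr1:24616138-24616197, minus strand), the 6 differing bases, in capitals, all lie in the first stretch: T1056A, C1057T, A1059G, A1060G, C1062A and A1066T, counted from 1 at the first base of mt-Co1. After the last of them, 479 bases run on without a difference to the end of the gene.
mt-Co1: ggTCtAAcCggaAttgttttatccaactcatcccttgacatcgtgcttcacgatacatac
Gm29216: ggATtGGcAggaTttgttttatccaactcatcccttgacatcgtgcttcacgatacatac

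Neighbouring members also share bases on the mitochondrial chromosome itself. The last 7 bases of mt-Nd4l are the first 7 of mt-Nd4, and the last 14 bases of mt-Nd5 lie opposite the last 14 of mt-Nd6. The ends of mt-Nd5 (chrM:13536-13565, plus strand) and mt-Nd6 (chrM:13552-13581, minus strand) are shown with the shared bases in capitals, because the balance of these genes is described below. The sources used here give neither the use of strand in counting nor the treatment of reads that match more than one place. Reads from the opposite strands therefore cannot be told apart, in these shared bases or along the rest of any member. This leaves uncertain the level of mt-Nd6, which lies opposite the strand of all other members, and its ratios to them. Levels of the members with a nuclear copy are also uncertain.
mt-Nd5: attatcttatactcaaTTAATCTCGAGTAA
mt-Nd6: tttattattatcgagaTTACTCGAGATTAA

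Per kb of gene, the 4 members matched over nearly their whole length were the 4 lowest of the 10. As means over all 8 libraries, mt-Co1, the catalytic core subunit of complex IV, had 158152 normalised reads per kb and mt-Nd1, a membrane subunit of complex I next to the quinone site, had 86026. The complex I membrane subunit genes mt-Nd2, mt-Nd6, mt-Nd4 and mt-Nd5 followed at 46325, 36814, 36304 and 23517 per kb. The complex IV core genes mt-Co2, whose product takes electrons from cytochrome c, and mt-Co3 were at 3785 and 1416 per kb, and the genes of the small complex I membrane subunits, mt-Nd4l and mt-Nd3, at 360 and 229 per kb. The lowest of the first 6 genes was 6.21-fold above the highest of the last 4. Outside the members, mt-Cytb, with no listed copy, was at 115301 per kb, and mt-Atp6, copied over 678 of 681 bases, at 1813. mt-Atp8 was the lowest of all 13 mitochondrial genes of the table at 30.3 per kb. Only 43 of its 204 bases aligned to a listed copy, so a low level was not confined to genes copied over nearly their whole length.

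The order of neighbours held in all 8 libraries for mt-Co1 above mt-Nd1, mt-Nd1 above mt-Nd2, mt-Nd5 above mt-Co2 and mt-Co3 above mt-Nd4l. It held in 7 libraries for mt-Nd2 above mt-Nd6, mt-Nd4 above mt-Nd5 and mt-Co2 above mt-Co3, and in 6 for mt-Nd4l above mt-Nd3. mt-Nd6 and mt-Nd4 were not separated, with 4 libraries in either order. Divided by only the 502 bases of mt-Nd4 and the 1053 of mt-Co1 outside the listed copies, all reads of each gene came to 99655 and 232046 per kb. These would be the levels only if no counted read came from the copied parts. Windows of mt-Co1 were also shared with Gm11512 and Gm13340, which are not among the 7 listed copies. Whether the copies set the low levels was not tested.

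**Figure D1:**
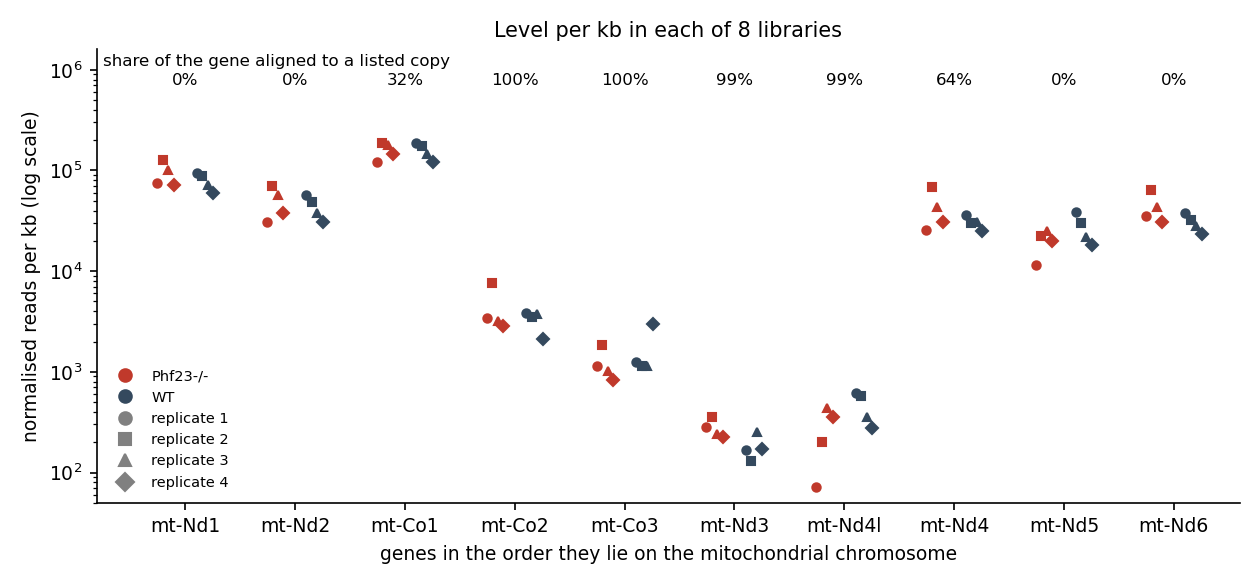
Normalised reads per kb (log axis) of the 10 genes in each of 8 libraries, in the order of the genes on the mitochondrial chromosome, with the share of each gene aligned to a listed nuclear copy printed above it. mt-Co2, mt-Co3, mt-Nd3 and mt-Nd4l, the genes aligned over nearly their whole length, lie below the other 6 in both groups.

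Together the members took 2.01%, 3.41%, 3.1% and 2.43% of normalised reads in Phf23-/- libraries 1 to 4 and 3.28%, 2.98%, 2.48% and 2.08% in WT libraries 1 to 4. The groups overlapped almost fully, with means of 2.74 ± 0.637% in Phf23-/- and 2.7 ± 0.533% in WT libraries (SD, n = 4 each). The largest part was mt-Co1, which made up 48.9% of the members' reads in Phf23-/- and 51.5% in WT libraries on average. The highest value of a member lay in Phf23-/- library 2 for 6 of the 10 genes and in WT library 1 for 3, and the lowest in WT library 4 for 5 and in Phf23-/- library 1 for 3.

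Of the 10 members, 0 differed between the genotypes at a false discovery rate (FDR) under 0.05, where 29.6% of all genes did (14.8% higher and 14.8% lower in Phf23-/-). The test was limma-trend on log2(value + 1), adjusted over all 15538 genes. At an unadjusted p under 0.05 there were 2, mt-Nd3 and mt-Nd6. EdgeR on the recovered reads called 0 of 10 (2 at an unadjusted p under 0.05) where it called 35.1% of the genes it tested, and DESeq2 called 1, mt-Nd3, against 37.2% of all. The median log2 fold change, Phf23-/- minus WT, was 0.18 over the members and 0.00055 over all genes. The values of the genotypes overlapped for every member, whereas they did not for 27.7% of all genes. The median SE was 0.245 for the members and 0.152 for all genes. Without Phf23-/- library 4, 2 members were called, where 37.7% of all genes were (mt-Nd3 at log2 0.71, FDR = 0.0312, and mt-Nd6 at 0.62, FDR = 0.0251), and without WT library 3, 1 was, where 24.8% of all genes were (mt-Nd3 at 0.79, FDR = 0.0255). Both shares of members lie below those of all genes. Without libraries 1 and 2 of each genotype, which had the steepest length slopes (defined with the ratios), 4 members rose, where 9.15% of all genes were called: mt-Nd1, mt-Nd2, mt-Nd4 and mt-Nd6, by 0.37, 0.44, 0.40 and 0.50 on the log2 scale (limma-trend FDR = 0.0212, 0.00295, 0.00860 and 0.000237). That alternative was chosen after the data were seen and leaves 2 libraries a group. For these 4 genes its FDR values rest almost wholly on a variance estimated across all genes. They therefore do not measure the spread between the 2 libraries of a group. Calls of this fit given below share this limit. With the length slope as a covariate in all 8 libraries, the same genes were at 0.16, 0.24, 0.14 and 0.25 (limma-trend FDR from 0.906 to 0.960), and 0 members were called (1 at an unadjusted p under 0.05, mt-Co3), where 1.09% of all genes were. With the length and GC trend subtracted 0 members were called (1 at an unadjusted p under 0.05, mt-Nd3), where 18.4% of all genes were. Without Phf23-/- library 2 alone, mt-Nd1, mt-Nd2 and mt-Nd6 were at 0.07, -0.07 and 0.27 (limma-trend FDR = 0.799, 0.858 and 0.244).

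Complex I genes without a listed copy come first. mt-Nd1 had 71609, 121411, 96199 and 68224 normalised reads in the Phf23-/- libraries and 90919, 84348, 68520 and 57382 in the WT libraries. Phf23-/- libraries 2 and 3 were the highest of all 8, and the other pair lay within the WT range. On the log2 scale Phf23-/- minus WT came to 0.23 ± 0.194 (SE, 95% interval -0.19 to 0.65, limma-trend FDR = 0.393).

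mt-Nd2, which encodes another membrane subunit of the proton pump, had 32266, 72582, 58705 and 39527 normalised reads in the Phf23-/- libraries and 59617, 50547, 39590 and 31852 in the WT libraries. The group ranges were nested apart from Phf23-/- library 2, with a log2 fold change of 0.13 ± 0.246 (95% interval -0.40 to 0.66, limma-trend FDR = 0.726). 

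mt-Nd5 encodes the outermost of the antiporter-like subunits and is the longest of the 10 genes, at 1824 bases. It had 21024, 41226, 46047 and 36612 normalised reads in the Phf23-/- libraries and 70987, 54508, 39626 and 33131 in the WT libraries. The lowest value was in Phf23-/- library 1 and the highest were in WT libraries 1 and 2, while the other 5 overlapped. Phf23-/- minus WT was -0.45 ± 0.257 on the log2 scale (95% interval -1.01 to 0.11, limma-trend FDR = 0.204). It was 0.18 (FDR = 0.355) without Phf23-/- libraries 1 and 2 and WT libraries 1 and 2, a fit on 4 libraries chosen after the data were seen.

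mt-Nd6, the gene on the opposite strand, has the base makeup of that strand: G is 28.1% and C 5.97% of its 519 bases, whereas in mt-Nd5 G is 9.98% and C 27.1%. It had 18267, 33382, 22347 and 15880 normalised reads in the Phf23-/- libraries and 19565, 16647, 14625 and 12140 in the WT libraries. Phf23-/- libraries 2 and 3 were above every WT library, and libraries 1 and 4 lay within the WT range. The estimated log2 fold change, 0.48 ± 0.208, had a 95% interval of 0.03 to 0.93 and a limma-trend FDR of 0.10.

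mt-Nd4, copied over its first 876 bases, encodes a further antiporter-like subunit. It had 35666, 95019, 60199 and 42022 normalised reads in the Phf23-/- libraries and 49372, 41259, 42312 and 34363 in the WT libraries. The spread was wider in Phf23-/- (mean 58226 ± 26641) than in WT libraries (41827 ± 6142, SD, n = 4 each), with Phf23-/- library 2 far above the rest. The log2 difference was 0.38 ± 0.245 (95% interval -0.15 to 0.91, limma-trend FDR = 0.257). Leaving out Phf23-/- library 2 gave 0.11, and adding the length slope as a covariate gave 0.14 (limma-trend FDR = 0.669 and 0.960).

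mt-Co1 was the highest of the members and the closest between the groups. It had 187991, 286939, 274778 and 225643 normalised reads in the Phf23-/- libraries and 291867, 270517, 227618 and 189401 in the WT libraries, means of 243838 ± 45698 and 244851 ± 45610 (SD, n = 4 each). The groups covered the same range. Their log2 difference was -0.0063 ± 0.171 (95% interval -0.38 to 0.36, limma-trend FDR = 0.981).

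**Figure D2:**
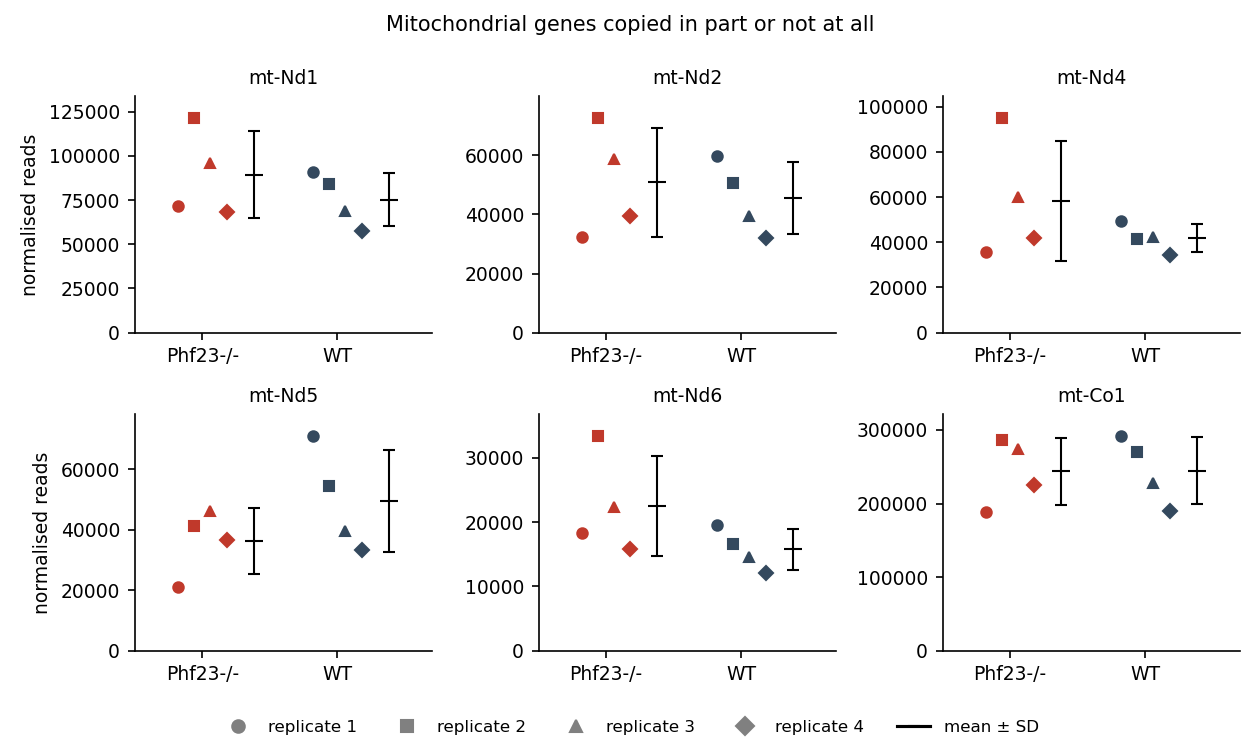
Normalised reads per library of the 6 genes that are copied in part or not at all, Phf23-/- left and WT right, with symbols for the replicate number and the mean ± SD (n = 4 each). The groups overlap for each gene, and Phf23-/- replicate 2 is the highest of 8 for mt-Nd1, mt-Nd2, mt-Nd4 and mt-Nd6.

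The 4 genes with a copy over nearly their whole length were counted at much lower levels. mt-Co2 had 2347, 5224, 2203 and 1937 normalised reads in the Phf23-/- libraries and 2611, 2378, 2569 and 1443 in the WT libraries. The value of Phf23-/- library 2 was more than double that of each other Phf23-/- library, and the other 7 libraries lay between 1443 and 2611. The fitted log2 difference was 0.30 ± 0.280 (95% interval -0.31 to 0.91, limma-trend FDR = 0.453). Without Phf23-/- library 2 it was -0.02, and without WT library 4 it was 0.10 (limma-trend FDR = 0.941 and 0.819).

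mt-Co3 had 905, 1446, 801 and 646 normalised reads in the Phf23-/- libraries and 978, 886, 899 and 2322 in the WT libraries. WT library 4 stood far above the other 7, although it had the lowest level of mt-Co2 and of 4 other members. Its log2 difference, Phf23-/- minus WT, was -0.35 ± 0.310 (95% interval -1.03 to 0.32, limma-trend FDR = 0.414). That value rested on WT library 4, without which it was -0.02 (limma-trend FDR = 0.955). With WT library 4 kept, it was -1.31 with the length slope, defined with the ratios, as a covariate and -1.01 without libraries 1 and 2 of each genotype (limma-trend FDR = 0.440 and 0.586).

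mt-Nd3 had 98.2, 123, 84.7 and 78.3 normalised reads in the Phf23-/- libraries and 58.9, 45.1, 87.8 and 60.1 in the WT libraries. WT library 3 overlapped the Phf23-/- range, and the other 3 WT libraries lay below it. Its log2 fold change of 0.62 ± 0.223 (95% interval 0.14 to 1.1) missed the threshold narrowly, at a limma-trend FDR of 0.0524. It was 0.06 (FDR = 0.970) with the length slope of each library, defined below, as a covariate and 0.16 (FDR = 0.776) without both libraries numbered 1 and 2 of each genotype.

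mt-Nd4l had 21.2, 60, 129 and 107 normalised reads in the Phf23-/- libraries and 182, 170, 105 and 81.4 in the WT libraries. Phf23-/- libraries 1 and 2 were the lowest and WT libraries 1 and 2 the highest, and the other 4 overlapped. These were few reads: 22 in Phf23-/- library 1, with an exact 95% Poisson interval of 13.8 to 33.3, and 185 in WT library 1 (159 to 214), where the intervals cover counting error only. The estimated log2 difference was -0.96 ± 0.462 (95% interval -1.96 to 0.04, limma-trend FDR = 0.134), and it was 0.57 (FDR = 0.826) with the length slope as a covariate and 0.34 (FDR = 0.390) without both libraries numbered 1 and 2 of each genotype.

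**Figure D3:**
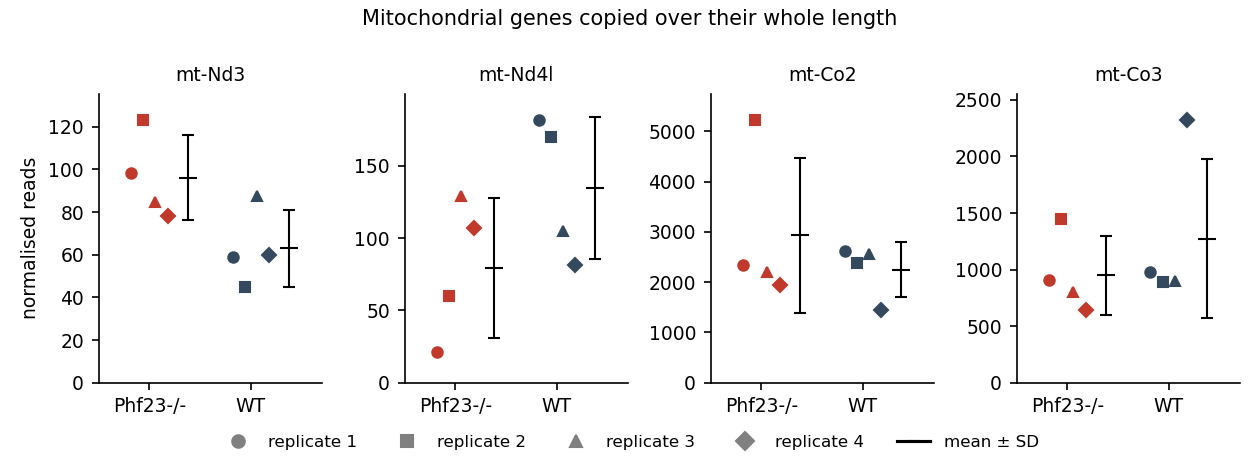
Normalised reads per library of the 4 genes with a nuclear copy over nearly their whole length, Phf23-/- left and WT right, with symbols for the replicate number and the mean ± SD (n = 4 each). mt-Co2 is highest in Phf23-/- replicate 2 at 5224 and mt-Co3 in WT replicate 4 at 2322.

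A ratio of genes within a library does not depend on the scaling between libraries. Of the 45 pairs of members, 9 had ratios that did not overlap between the groups, a smaller share than the 29.3% among all pairs of 13250 nuclear genes averaging 10 or more normalised reads with no value of 0, so the count itself is no result about the members. Among the 15 pairs of the 6 genes copied in part or not at all there were 8, and these included all 5 pairs with mt-Nd5 and 3 of 5 with mt-Nd6. Members share their libraries, so pairs are not independent, and the pairs printed were chosen after their values were seen. No test was made of them.

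The ratio of mt-Nd5 to mt-Nd6 was 1.15, 1.24, 2.06 and 2.31 in Phf23-/- libraries 1 to 4 and 3.63, 3.27, 2.71 and 2.73 in WT libraries 1 to 4. The ratio of mt-Nd5 to mt-Co1 was 0.112, 0.144, 0.168 and 0.162 in the Phf23-/- libraries and 0.243, 0.201, 0.174 and 0.175 in the WT libraries. In both ratios every Phf23-/- library lay below every WT library, and libraries 3 and 4 of the genotypes came close to each other for mt-Nd5 over mt-Co1. The ratio of mt-Nd6 to mt-Co1 was 0.0972, 0.116, 0.0813 and 0.0704 in the Phf23-/- libraries and 0.0670, 0.0615, 0.0643 and 0.0641 in the WT libraries. Reads of all 7 complex I genes over those of the 3 complex IV genes, which overlapped, came to 0.936, 1.24, 1.02 and 0.887 in the Phf23-/- libraries and 0.984, 0.904, 0.887 and 0.875 in the WT libraries. The complex IV sum was almost wholly mt-Co1, at 48.9% and 51.5% of the members' reads in Phf23-/- and WT libraries. mt-Co2 held 0.57% and 0.47%, and mt-Co3 0.19% and 0.30%. This ratio is therefore nearly one to mt-Co1 alone.

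Libraries also differed in how counts of nuclear genes depended on transcript length. The ratios of mt-Nd5 to mt-Nd6 and to mt-Co1 moved with this, but not every mt-Nd5 ratio did. The length slope, the change in log2 level per doubling of transcript length over 13253 nuclear genes, was -0.25, -0.31, -0.09 and 0.04 in Phf23-/- libraries 1 to 4 and 0.27, 0.20, 0.08 and 0.06 in WT libraries 1 to 4. Sorted by the ratio of mt-Nd5 to mt-Nd6, a gene of 1824 over one of 519 bases, the libraries stood in the same order as by the slope, save that Phf23-/- libraries 1 and 2 and WT libraries 3 and 4 changed places. mt-Co1, at 1545 bases, is closer in length to mt-Nd5. The ratio of mt-Nd5 to mt-Nd4l, the shortest member at 297 bases, did not follow the slopes. It was 993, 687, 356 and 343 in the Phf23-/- libraries and 391, 321, 379 and 407 in the WT libraries. It was thus highest in Phf23-/- libraries 1 and 2, which had the lowest slopes, though mt-Nd4l had few reads. The part of the length slope in the ratios was not tested, and since no Phf23-/- library had a slope as high as any WT library, slope and genotype cannot be told apart.

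**Figure D4:**
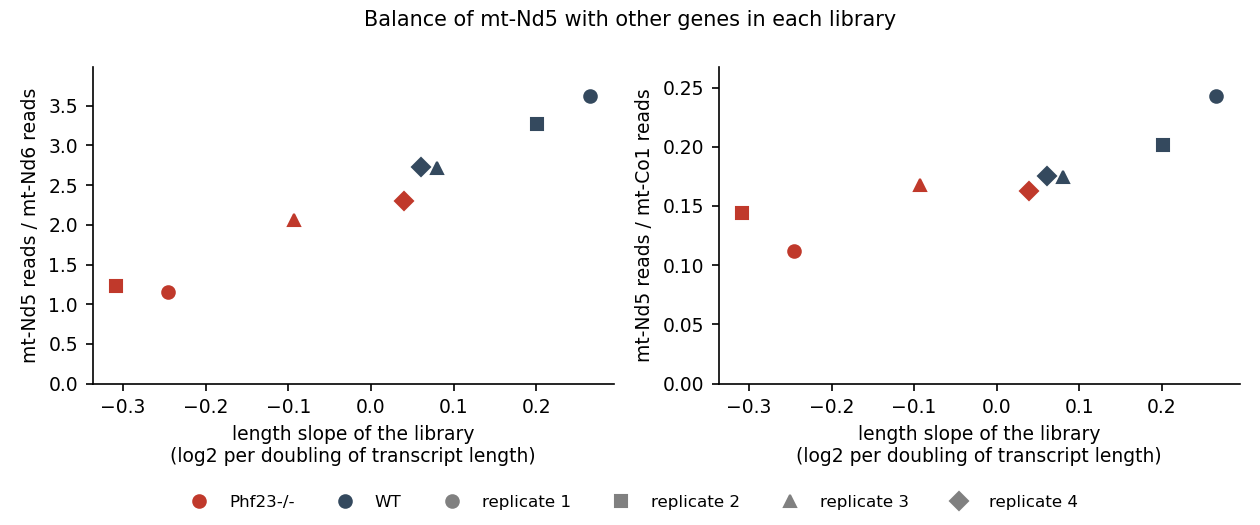
Ratio of mt-Nd5 to mt-Nd6 reads (left) and of mt-Nd5 to mt-Co1 reads (right) against the length slope of nuclear genes, 1 point per library. The Phf23-/- libraries run from 1.15 to 2.31 for mt-Nd5 over mt-Nd6, below the WT libraries at 2.71 to 3.63, and also have the lower slopes.

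The nuclear-encoded subunits of the same complexes were called far more often. Of 36 nuclear complex I genes measured, 35 rose and 0 fell in the Phf23-/- libraries, with a median log2 fold change of 0.80, against 14.8% of all genes that rose. Ndufv3, an accessory subunit of the NADH-binding module, averaged 2529 ± 529 normalised reads in Phf23-/- and 1150 ± 242 in WT libraries (SD, n = 4 each, log2 1.14 ± 0.169 SE, limma-trend FDR = 0.00213). The accessory subunit genes Ndufb8 and Ndufb6 rose by 0.99 and 1.17 on the log2 scale, and Ndufv1, which encodes the core subunit that binds NADH, by 0.73 (limma-trend FDR = 0.00477, 0.00495 and 0.00498).

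Of 16 nuclear complex IV genes, 14 rose and 0 fell (median log2 fold change 0.90). Cox6a1 averaged 12142 ± 3472 normalised reads in Phf23-/- and 5605 ± 583 in WT libraries (SD, n = 4 each, log2 1.08 ± 0.175 SE, limma-trend FDR = 0.00304). Cox8a, Cox4i1 and Cox6b1, also structural subunits around the mitochondrially encoded core, rose by 1.02, 0.94 and 1.01 (limma-trend FDR = 0.00487, 0.00507 and 0.00534). These nuclear genes have short transcripts, with a median of 1026 bases for complex I and 721 for complex IV. With a trend of length and GC content subtracted from each library, 22 of 36 and 9 of 16 rose, where 18.4% of all genes were called. In that fit Cox6a1, Cox8a and Cox4i1 were not called (log2 0.09, 0.14 and 0.21). Without the libraries numbered 1 and 2 of each genotype 17 and 11 rose, where 9.15% of all genes were called. With the length slope as a covariate 0 and 0 were called (3 and 1 at an unadjusted limma-trend p under 0.05), where 1.09% of all genes were. Whether the nuclear and mitochondrial lists differ in their change was not tested.

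Genes of factors that assemble the complexes were called in one direction, where 14.8% of all genes rose and 14.8% fell. Of the complex I assembly genes 6 of 14 rose and 0 fell (median 0.31), among them Ndufaf8 (log2 0.93), Ndufaf5 (0.53), Ndufaf1 (0.47) and Ndufaf2 (0.55), with limma-trend FDR = 0.0136, 0.0138, 0.0360 and 0.0405. Of the complex IV assembly genes 8 of 19 rose and 0 fell (median 0.36), led by Pet100 (log2 1.39), Cox14 (1.04), Coa3 (0.79) and Cox19 (0.62), with limma-trend FDR = 0.00477, 0.00826, 0.0112 and 0.0170. With the length and GC trend subtracted, 3 and 4 rose, where 18.4% of all genes were called in either direction. In that fit Ndufaf8, Ndufaf1, Ndufaf2 and Coa3 were not called (log2 0.28, 0.25, 0.45 and 0.23, limma-trend FDR = 0.130, 0.156, 0.0516 and 0.0818). Without the libraries numbered 1 and 2 of each genotype 0 and 1 rose, where 9.15% of all genes were called. With the length slope as a covariate 0 and 0 rose (0 and 1 at an unadjusted limma-trend p under 0.05), where 1.09% were called.

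The genes that transcribe the mitochondrial chromosome gave no call. Of 9 measured, limma-trend, edgeR and DESeq2 each called 0, and 1 had an unadjusted limma-trend p under 0.05. Among all genes tested, these tools called 29.6%, 35.1% and 37.2%. Whether this short list differs from all genes was not tested. The polymerase gene Polrmt averaged 765 ± 92.6 normalised reads in Phf23-/- and 663 ± 59.1 in WT libraries, the transcription factor gene Tfb2m 402 ± 26.9 and 460 ± 33.3, Mterf2 176 ± 22.6 and 137 ± 21.1, and Mterf3 498 ± 19.6 and 569 ± 63.6 (SD, n = 4 each, limma-trend FDR = 0.204, 0.194, 0.0948 and 0.216).

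Of 17 genes that process or stabilise mitochondrial RNA, 4 rose and 1 fell (median log2 fold change 0.10), a share close to the 29.6% called among all genes, so the count is no result about this list and the genes are given for their roles. Fastk, whose product is known to be needed for mt-Nd6 messenger RNA in mouse and human cells, averaged 2268 ± 354 normalised reads in Phf23-/- and 1491 ± 216 in WT libraries (SD, n = 4 each, log2 0.60 ± 0.132 SE, limma-trend FDR = 0.00909). The related gene Fastkd3 fell (log2 -0.45, limma-trend FDR = 0.0115), with 235 to 261 normalised reads in the Phf23-/- and 331 to 343 in the WT libraries. Fastkd5, another member of that family, rose (log2 0.54, limma-trend FDR = 0.0345), as did Hsd17b10, which encodes a subunit of mitochondrial RNase P (0.58, FDR = 0.0246). With the length and GC trend subtracted, 3 rose and 0 fell, Fastk and Fastkd5 among them (log2 0.49 and 0.59, limma-trend FDR = 0.00961 and 0.0225). In that fit Fastkd3 and Hsd17b10 were not called (log2 -0.21 and 0.13, limma-trend FDR = 0.138 and 0.340). With the slope as a covariate Hsd17b10 was at -0.08 (limma-trend FDR = 0.902). Fastkd3 was at -0.42 without the libraries numbered 1 and 2 of each genotype and at -0.37 with the slope as a covariate, not called in either (limma-trend FDR = 0.0778 and 0.430). Without the libraries numbered 1 and 2 of each genotype 0 of the 17 were called (Fastk at log2 0.29, FDR = 0.0694), and with the length slope as a covariate 0 (Fastk at 0.15, FDR = 0.744, and 1 gene at an unadjusted limma-trend p under 0.05).

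Of 11 genes that maintain mitochondrial DNA, 0 rose and 2 fell: Rrm2b, a ribonucleotide reductase subunit gene (log2 -0.52, limma-trend FDR = 0.0162), and Lig3, a DNA ligase gene (-0.68, FDR = 0.0255). That is no larger a share than among all genes, of which 29.6% were called, and the same holds for the regulators that follow. Rnaseh1 and the polymerase gene Polg were at 0.38 and -0.19 (FDR = 0.0928 and 0.171). Of 8 regulators of mitochondrial biogenesis, 1 rose and 1 fell. The nuclear receptor gene Esrra rose (log2 0.65, limma-trend FDR = 0.0127), and Gabpa, which encodes a subunit of the nuclear respiratory factor GABP, fell (-0.50, FDR = 0.0137). Gabpb1 and Pprc1 were at -0.27 and -0.08 (FDR = 0.0780 and 0.585). With the length and GC trend subtracted, Rrm2b, Lig3 and Gabpa were not called (log2 -0.24, -0.40 and -0.20), and 3 of the 8 regulators rose, Esrra among them (0.52, FDR = 0.0263). None of Rrm2b, Lig3, Esrra and Gabpa was called with the slope as a covariate (limma-trend FDR from 0.734 to 0.931), or without the libraries numbered 1 and 2 of each genotype (0.0539 to 0.315).

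**Figure D5:**
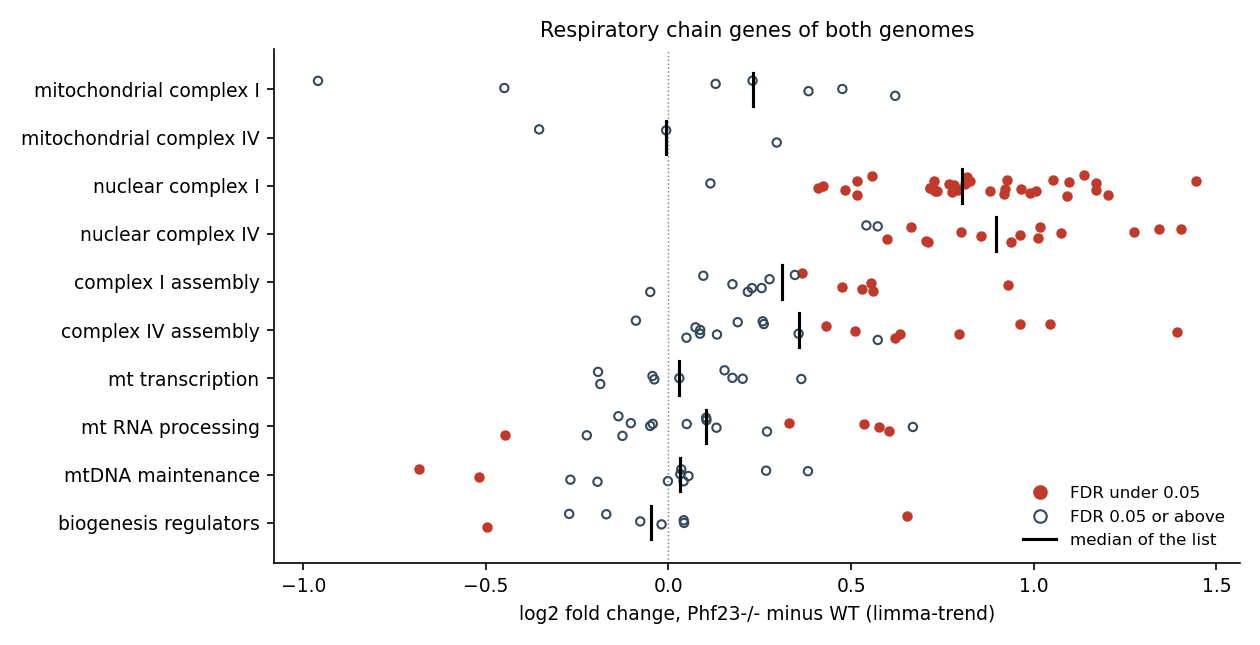
Log2 fold change (Phf23-/- minus WT, limma-trend) of each gene of 10 lists, filled where the FDR was under 0.05, with the median of the list as a bar. None of the 10 mitochondrially encoded genes is filled, against 35 of 36 nuclear complex I and 14 of 16 nuclear complex IV genes.

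Of the other mitochondrially encoded genes, mt-Cytb, the complex III subunit gene, had 99935, 195469, 149863 and 108017 normalised reads in the Phf23-/- libraries and 145760, 134022, 121121 and 101048 in the WT libraries (log2 0.10 ± 0.199, limma-trend FDR = 0.736). The ATP synthase subunit genes mt-Atp6, copied over 678 of its 681 bases, and mt-Atp8 were at 0.57 and -0.11 (limma-trend FDR = 0.113 and 0.913), the second with 49 reads over all libraries. Phf23-/- library 2 was the highest of 8 for each of these 3 genes, as it was for 6 of the 10 members.

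The genes whose level followed the members most closely over the 8 libraries were Rab2b, Ppt1, Zscan22, Rab10 and Cnot9. Their log2 levels had a Pearson r of 0.978, 0.959, 0.959, 0.948 and 0.946 with the mean of the members' centred log2 levels, the highest among 13259 nuclear genes, each averaging 10 normalised reads or more. These are given as a description of 8 points that share library and depth, with the best of many picked. Rab2b ranged from 452 to 686 normalised reads in the Phf23-/- libraries and from 460 to 648 in the WT libraries.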

How the data were processed

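Gene expression was measured in 4 Phf23-/- and 4 WT libraries. The build was mm10 and the tools STAR 2.7.1a, DESeq2 1.38.3, fastp 0.23.4 and FastQC 0.12.1, per the submitters' processing notes. The sources used here do not give the counter, annotation, strand setting or treatment of multiply matching reads. In the deposited table, each signal value was a read count over the size factor of its library (0.889 to 1.07): whole reads were recovered for 100% of values within 1e-04 reads. Of 15602 rows, 64 repeats were dropped. Genes were matched to GENCODE M21.

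Log2(value + 1) was tested for genotype alone by limma-trend (limma 3.58.1 under R 4.3.3, robust empirical Bayes), two-sided, with Benjamini-Hochberg adjustment over 15538 genes. Such fold changes understate changes of genes with few reads. The edgeR 4.0.16 test on recovered reads, an alternative, called 4683 of 13324 genes. Copies were aligned without gaps at 95% identity or more over at least 40 bases. The members, lists and most alternatives were chosen with earlier results of these data known. Genes were named as all members, other mitochondrial genes, up to 4 of each list by FDR, and the 5 most alike. Alternatives were other tools and scalings, 0.1 as pseudocount, means of 10 or more, a replicate block, length terms (loess span 0.3) and leaving out libraries.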

Additional observations from a re-analysis of the deposited data

Results flagged for a closer look

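In Phf23-/- library 2, mt-Co2 stood at 5224 normalised reads, apart from the other 3 Phf23-/- libraries at 1937 to 2347; the gap to the nearest was 0.875 of the group's whole range, above Dixon's critical value of 0.829 for 4 samples. In WT library 4, mt-Co3 stood at 2322 normalised reads, apart from 886 to 978 in the other 3, with a gap of 0.936 of the range. Both are genes with a nuclear copy over nearly their whole length. These were 2 of 24 groups examined, where chance flags about 1 in 20.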

How the results depend on the processing

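The count of all genes called was 4593. Subtracting the length and GC trend gave 2861. There were 169 with the length slope as a covariate, 333 with a replicate block, 1422 without the 4 libraries whose length slopes were steepest (libraries 1 and 2 of each genotype, an alternative chosen after the data were seen), and 1884 to 5861 with each library left out (lowest without Phf23-/- library 1 at 1884, WT library 2 at 2106 and WT library 1 at 2189). Same-numbered libraries did not deviate together (correlations from -0.33 to -0.13). Yet libraries 1 and 2 had the steepest length slopes in both genotypes, negative in Phf23-/- and positive in WT libraries. Whether the numbers mark batches was not tested. Of the members, 0 were called by limma-trend with the block, 1 by DESeq2, 1 with a minimum mean of 10 (mt-Nd3, in both), 0 to 2 with each library left out, and 4 without the 4 libraries: mt-Nd1, mt-Nd2, mt-Nd4 and mt-Nd6. The Phf23-/- minus WT difference in the members' share of reads ran from -0.19 to 0.28 percentage points with each library left out, against 0.03, and that in the complex I to IV ratio from 0.04 to 0.15, against 0.11. The sign of mt-Co1 changed in 7 of 20 alternatives, and those of mt-Nd2, mt-Nd4l, mt-Nd5 and mt-Co2 in 2 each; none of these was called in limma-trend with genotype alone. Scaling by library size moved the median of all genes by -0.06.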
